A study of Homo sapiens with 12 samples.

Results

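The comparison set the 3 IGROV-1 cell populations that had been transfected and selected with puromycin against the Parental population from which they were made, and asked which transcripts differed in all of them whatever hairpin they carried. IGROV-1 is an established human ovarian cancer line. The 12 arrays of the series, all used here, form 4 groups of 3. Mock cells carry a plasmid with a scrambled short hairpin RNA (shRNA) and are a pool of clones. The shCXCR4_I and shCXCR4_II cells carry plasmids with 1 of 2 shRNA sequences against CXCR4, the receptor of the chemokine CXCL12, and are individual clones. In these 3 groups, called the selected groups below, a lipid reagent delivered the plasmid, and 4 µg/ml puromycin was applied from 48 hours on for 30 days. Parental cells were neither transfected nor selected. Transfection, the plasmid, puromycin and the added time in culture therefore cannot be told apart, and the labels name 1 Parental population for all 3 Parental arrays. The labels do not say that arrays of a group came from separate cultures, so p-values reflect array-to-array spread alone, and that spread may be technical.

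Puromycin is an aminonucleoside that resembles the end of a charged transfer RNA and is built into growing peptide chains, which then leave the ribosome early. Cells that carry a puromycin N-acetyltransferase gene on the plasmid inactivate the drug and survive. A selected population descends from the cells that took up and kept the plasmid, so it is a sample of the starting population as well as a treated one.

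Values are log2 expression values per probe set, and each of 19775 genes was represented by its brightest probe set. A gene was counted as shared by the selected groups when the mean of the 3 groups differed from Parental at a limma adjusted p under 0.05 (Benjamini-Hochberg over all genes) and all 9 selected arrays lay above, or all 9 below, the 3 Parental arrays. Both conditions use the same contrast, so the number and direction of these genes is a description. The mean differed in 3060 genes (15.5% of all tested), of which 1629 (8.24%) were higher and 1431 (7.24%) lower. Shared genes numbered 1555 (7.86%), with 867 (4.38%) above and 688 (3.48%) below the Parental range. In the other 1505 called genes the 9 selected arrays did not all lie outside the Parental range on the same side. These genes are called overlapping below. A further 130 genes lay above and 73 below the range on all 9 arrays without passing the test, so that by range alone 997 genes (5.04%) were above and 761 (3.85%) below.

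The array medians lay between 4.25 and 4.39. Mock arrays had interquartile ranges of 3.38 to 3.43, wider than those of all other arrays (3.19 to 3.31). The root mean square log2 difference over genes from Parental was 0.225 in Mock, 0.245 in shCXCR4_I and 0.252 in shCXCR4_II, while Mock differed from the shCXCR4 clones by 0.265 and 0.273. The clones differed from each other by 0.166. Transcripts of the epithelial marker EPCAM and of PAX8, a transcription factor of the Müllerian lineage, were abundant in every group, with group means of 11.71, 11.98 and 11.80 in Mock, shCXCR4_I and shCXCR4_II against 11.63 in Parental for EPCAM, and 10.0, 10.2 and 10.1 against 10.2 for PAX8. The ovarian serum marker MUC16 was near the bottom of the scale, at 2.90, 2.80 and 2.95 against 3.25. The leukocyte gene PTPRC had 3.13, 3.10 and 3.07 against 3.02, and 0 of 15 leukocyte markers passed limma's test, with 0 at an unadjusted p under 0.05 too. Of 12 fibroblast markers 2 passed lower, MFAP5 (-0.59) and FBLN2 (-0.17), and of 12 endothelial markers VWF (-0.18) and CDH5 (-0.43). These were 16.7% of each list, near the 15.5% of all genes that passed.

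CXCR4, the targeted gene, was low in the shCXCR4 clones and not in Mock. Its log2 values were 8.51, 8.60 and 8.64 in Mock, 7.06, 7.10 and 7.11 in shCXCR4_I and 6.39, 6.73 and 6.75 in shCXCR4_II, against 8.42, 8.28 and 8.30 in Parental. The log2 fold change of the mean of the selected groups was -0.90 (SE 0.07, limma adjusted p = 1.46e-06), but the Mock arrays lay above the highest Parental array, so CXCR4 is not a shared gene.

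Shared changes were mostly small. The median log2 fold change was 0.29 among the shared higher genes, with quartiles of 0.23 and 0.40, and -0.39 among the shared lower genes, with quartiles of 0.28 and 0.58 in size. Over all genes the median was 0.01. Only 8 genes rose and 25 fell at least 2-fold in each of the 3 selected groups. Each group on its own had 1934 genes higher (9.78%) and 1034 lower (5.23%) in Mock, 1632 (8.25%) and 1693 (8.56%) in shCXCR4_I, and 1478 (7.47%) and 1875 (9.48%) in shCXCR4_II. Of the shared genes, 380 higher and 371 lower ones also passed in every selected group on its own, and these 3 comparisons share the Parental arrays. Shared genes were brighter than most, with median Parental log2 values of 7.15 for the higher and 7.94 for the lower ones, against 5.33 for all genes. The shares of all genes set beside gene lists below include dim genes, and the lists were not matched for brightness. A list of bright genes can therefore exceed those shares without differing from equally bright genes. At the edge of the rule, TTC9C cleared the Parental range by the narrowest margin among the higher genes (log2 fold change 0.23) and ATG2B just missed it (0.20). Among the lower genes ANKRD50 lay just inside (-0.25) and ANKRD13C just outside (-0.28).

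The size of the shared changes differed among the selected groups at many genes. A limma F test among Mock, shCXCR4_I and shCXCR4_II passed in 304 shared higher genes (35.1%) and 356 shared lower ones (51.7%), and in 30.1% of all genes. The test uses the same 9 arrays and the same variance as the choice of shared genes, which are also brighter than most, so these shares are a description and are not set against each other. Among the higher genes the greatest change was in Mock for 325, in shCXCR4_I for 319 and in shCXCR4_II for 223. Among the lower genes it was in shCXCR4_II for 308, in shCXCR4_I for 213 and in Mock for 167.

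The shared losses with the greatest smallest change over the 3 groups were led by a growth factor and a receptor tyrosine kinase. PDGFC, a ligand of the platelet-derived growth factor receptors, had log2 values of 6.37, 6.26 and 6.37 in Mock, 5.80, 5.66 and 5.83 in shCXCR4_I and 4.81, 4.86 and 4.80 in shCXCR4_II, against 8.58, 8.60 and 8.74 in Parental. It fell 8-fold on average (log2 fold change -3.00, SE 0.06, limma adjusted p = 1.12e-12). Every selected array was below every Parental array, and shCXCR4_II was lowest. KIT, the receptor for stem cell factor, had 3.76, 3.33 and 3.63 in Mock, 4.43, 4.46 and 4.33 in shCXCR4_I and 4.30, 4.41 and 4.45 in shCXCR4_II, against 6.68, 6.31 and 6.62 in Parental, with Mock lowest. The fall was 5.34-fold (-2.42, SE 0.09, limma adjusted p = 9.8e-10), and the selected arrays lay close to the dim end of the scale, where array signals flatten and folds are understated.

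Other leading losses encode surface and guidance proteins. EPHA4, an ephrin receptor, had 6.28, 6.23 and 6.21 in Mock, 6.19, 6.06 and 6.15 in shCXCR4_I and 6.52, 6.33 and 6.31 in shCXCR4_II, against 7.98, 7.91 and 7.95 in Parental, a fall of 3.23-fold (limma adjusted p = 1.85e-10) that was smallest in shCXCR4_II. ADGRL2, a latrophilin-type adhesion receptor, had 4.39, 4.20 and 4.28 in Mock, 2.47, 3.09 and 2.74 in shCXCR4_I and 2.93, 2.87 and 2.90 in shCXCR4_II, against 5.85, 5.75 and 6.00 in Parental, with both clones lower than Mock. NTN4, a netrin of basement membranes, had a log2 fold change of -1.68 (SE 0.11), and DPYSL2, which binds tubulin and acts in semaphorin signalling, had -2.48 (SE 0.06). MAL, a proteolipid of apical membrane transport, changed by -1.87. F3, tissue factor, the receptor that starts blood coagulation, had 7.21, 7.5 and 7.31 in Mock, 7.03, 7.07 and 7.05 in shCXCR4_I and 6.84, 7.0 and 7.16 in shCXCR4_II, against 8.81, 8.78 and 8.70 in Parental. All 9 selected arrays of F3 were more than 1 log2 unit below the lowest Parental array.

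Metabolic enzymes were among the losses too. ALDH1A1, which oxidizes retinal to retinoic acid and is used as a marker of stem-like tumour cells, had 9.58, 9.65 and 9.58 in Mock, 8.87, 9.02 and 9.09 in shCXCR4_I and 8.73, 8.68 and 8.84 in shCXCR4_II, against 10.91, 10.88 and 10.92 in Parental. It remained an abundant transcript, at 3.45-fold below Parental (limma adjusted p = 1.31e-10), and the clones lay below Mock. NNMT, nicotinamide N-methyltransferase, had 3.52, 3.12 and 3.45 in Mock, 3.62, 3.62 and 3.43 in shCXCR4_I and 3.51, 3.47 and 3.63 in shCXCR4_II, against 5.19, 5.01 and 4.76 in Parental, and the F test among the selected groups did not pass (limma adjusted p = 0.356). Its selected arrays lay close to the dim end of the scale, so that test says little about how alike the groups are. A dimmer probe set of NNMT gave a log2 fold change of -3.095, against -1.504 on the representative one. The remaining leading losses were LRATD1 (-2.87), the glycan-branching enzyme family member MGAT4C (-2.85), PNMA2 (-2.13), KLHL5 (-1.68) and NIBAN1 (-1.94). KLHL5 varied least among them, with group fold changes of -1.59 in Mock, -1.74 in shCXCR4_I and -1.70 in shCXCR4_II. For LRATD1 the probe sets disagreed, since the second brightest gave 0.03, while the third gave -2.63 and the representative one -2.86.

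The leading shared gains were smaller. SHISA3, a relative of the Xenopus protein Shisa, which holds Wnt and FGF receptors back in the endoplasmic reticulum, had 10.89, 10.92 and 10.86 in Mock, 8.70, 8.68 and 8.62 in shCXCR4_I and 8.79, 9.09 and 8.98 in shCXCR4_II, against 7.14, 7.01 and 6.88 in Parental. It rose 5.64-fold on average (log2 fold change 2.50, SE 0.07, limma adjusted p = 3.32e-11), and Mock stood about 2 log2 units above both clones. SLC6A8, the creatine transporter, had 7.39, 7.62 and 7.90 in Mock, 8.10, 7.82 and 7.76 in shCXCR4_I and 7.73, 7.79 and 7.94 in shCXCR4_II, against 6.28, 6.47 and 6.27 in Parental. Its rise was 2.72-fold (limma adjusted p = 3.7e-07) and the F test among the 3 groups did not pass (limma adjusted p = 0.244). FGFBP1, a secreted carrier that frees fibroblast growth factors from the matrix, had 9.37, 9.36 and 9.30 in Mock, 9.65, 9.64 and 9.63 in shCXCR4_I and 8.92, 8.94 and 8.96 in shCXCR4_II, against 7.84, 7.81 and 7.82 in Parental. It rose 2.8-fold (limma adjusted p = 5.68e-11), and no 2 groups overlapped.

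CYP1A1, a monooxygenase induced through the aryl hydrocarbon receptor, had 7.98, 7.99 and 7.94 in Mock, 7.97, 7.93 and 7.92 in shCXCR4_I and 8.36, 8.30 and 8.34 in shCXCR4_II, against 6.97, 6.87 and 6.91 in Parental. The selected arrays were all about 1 log2 unit or more above Parental (1.16, SE 0.04, limma adjusted p = 1.01e-09). CRABP2, which carries retinoic acid to its nuclear receptors, had 7.29, 7.46 and 7.30 in Mock, 7.73, 7.76 and 7.71 in shCXCR4_I and 7.78, 7.69 and 7.85 in shCXCR4_II, against 6.53, 6.63 and 6.49 in Parental. The leading gains also held SEMA4A, a membrane semaphorin (1.24), SMOC2, a matricellular calcium-binding protein (0.98, with 0.20 on a probe set outside the _x_at and _s_at classes), PCOLCE2, an enhancer of procollagen processing (0.86), SFTA2 (1.24), SPAG4 (0.92) and the antisense RNA VAC14-AS1 (1.67). Finally POU5F1B (1.02), POU5F1P3 (1.12) and POU5F1P4 (1.03) are near-identical copies of the pluripotency gene POU5F1, and their probe sets cannot tell which copy gave the signal. Of the 30 leading genes, 11 have several probe sets. All of these passed in the same direction in 4 genes, some in the other 7, and none passed in the opposite direction.

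**Figure D1:**
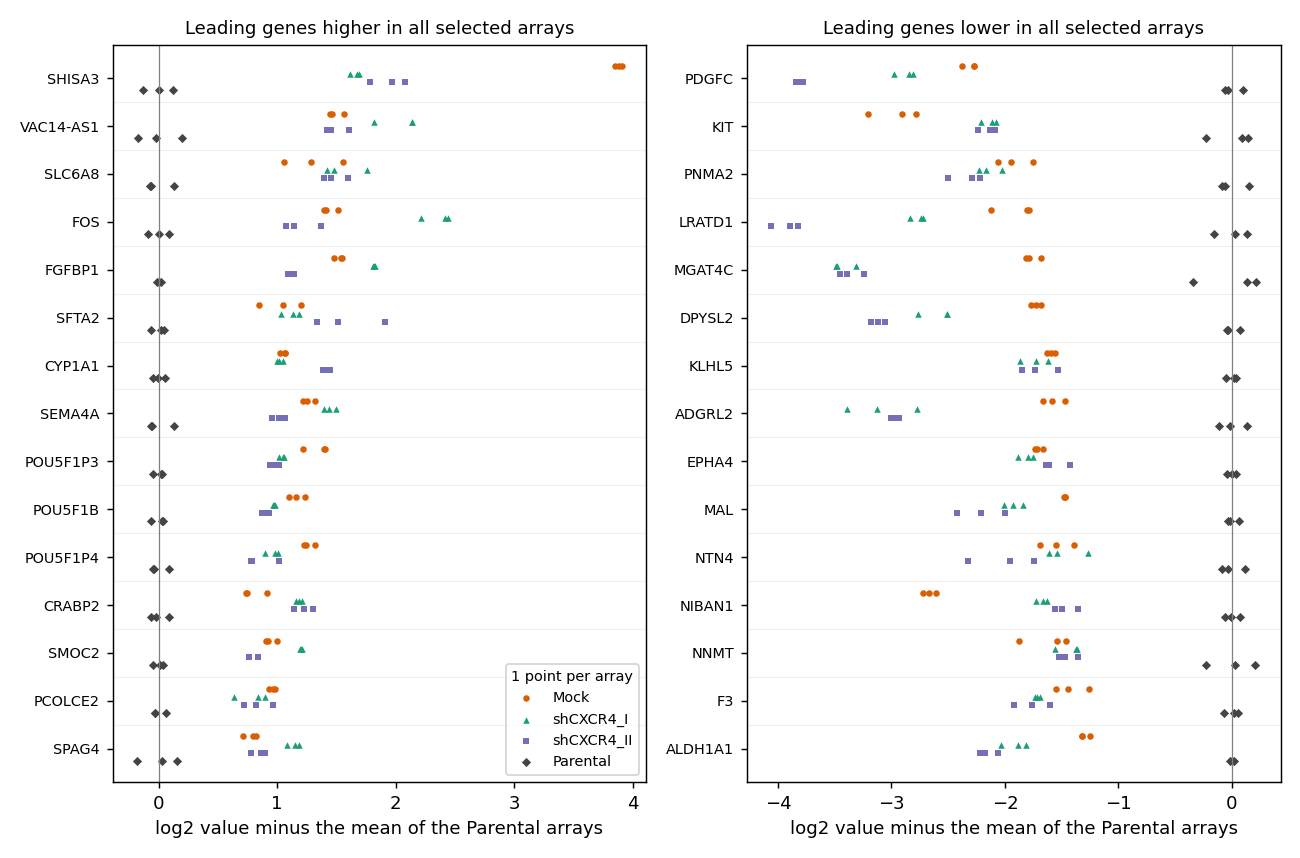
Log2 value of each array minus the mean of the Parental arrays (x axis, log2 units) for the 15 leading shared higher genes (left) and the 15 leading shared lower genes (right), with 1 point per array. All selected arrays lie to one side of the Parental points, while the spacing of Mock, shCXCR4_I and shCXCR4_II differs from gene to gene, as in SHISA3 and PDGFC.

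Genes of cholesterol synthesis fell together in the selected groups. The pathway turns acetyl-CoA into cholesterol through mevalonate and squalene, and its enzymes share transcriptional control by SREBP proteins, which INSIG proteins hold in the endoplasmic reticulum when sterols are plentiful. Of 18 measured genes of synthesis and uptake, 12 passed lower and 1 higher (72.2%, against 15.5% of all genes), and 10 were shared lower. The median log2 fold change of the list was -0.34. It was -0.15 in Mock, -0.45 in shCXCR4_I and -0.39 in shCXCR4_II, and these medians share the Parental arrays.

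Upstream, HMGCS1, the synthase that feeds the mevalonate pathway, had 7.16, 7.08 and 6.61 in Mock, 6.73, 7.07 and 6.70 in shCXCR4_I and 6.99, 7.0 and 6.53 in shCXCR4_II, against 7.64, 8.04 and 8.15 in Parental. Its fall was 2.1-fold (log2 fold change -1.07, SE 0.14, limma adjusted p = 0.000161), with Parental_1 the lowest of the Parental arrays and the F test among the selected groups at limma adjusted p = 0.822. INSIG1, itself an SREBP target, had 8.37, 8.34 and 8.31 in Mock, 8.23, 8.15 and 8.11 in shCXCR4_I and 7.86, 8.21 and 8.21 in shCXCR4_II, against 9.36, 9.45 and 9.39 in Parental, a fall of 2.3-fold (limma adjusted p = 5.4e-08) on all 3 of its probe sets. STARD4, a carrier of cholesterol between membranes, had 6.93, 6.80 and 7.12 in Mock, 6.86, 6.87 and 6.62 in shCXCR4_I and 6.63, 6.62 and 6.59 in shCXCR4_II, against 7.40, 7.48 and 7.55 in Parental. The selected arrays of these 3 genes were separate from Parental by clear gaps. The shared lower genes further held the isomerase IDI1 (-0.37), squalene epoxidase SQLE (-0.32), lanosterol synthase LSS (-0.48), and the late enzymes MSMO1 (-0.57), HSD17B7 (-0.40), SC5D (-0.36) and DHCR7 (-0.45). FDPS (-0.31) and MVD (-0.22) passed lower but overlapped, and PMVK (0.16) passed higher. In the neighbouring list of fatty acid and lipid storage genes, 4 of 23 passed lower and 3 higher (30.4%, against 15.5% of all genes). Its shared lower members were LPIN1, a phosphatidate phosphatase that is also an SREBP target (-0.75), and ACLY, which makes cytosolic acetyl-CoA (-0.30).

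Metallothioneins, small cysteine-rich proteins that bind zinc, copper and cadmium, were lower as well. Of 10 measured genes of the family and its regulators, 6 passed lower and 0 higher (60%, against 15.5% of all genes), and 5 were shared lower. With limma 0 members rose at an unadjusted p under 0.05 too. MT1X had 7.62, 7.77 and 7.77 in Mock, 6.83, 6.80 and 6.94 in shCXCR4_I and 7.44, 7.39 and 7.53 in shCXCR4_II, against 8.31, 8.30 and 8.31 in Parental. MT2A had 8.14, 8.30 and 8.31 in Mock, 7.29, 7.35 and 7.28 in shCXCR4_I and 7.45, 7.69 and 7.62 in shCXCR4_II, against 8.67, 8.71 and 8.55 in Parental. MT1F had a log2 fold change of -0.94 (SE 0.07) and MT1H of -0.56 (SE 0.06), and the zinc exporter SLC30A1, which is induced by the same metal-sensing factor MTF1, changed by -0.15. In MT1X and MT2A the order was the same, with shCXCR4_I lowest, then shCXCR4_II, Mock and Parental, and the F test among the selected groups passed (limma adjusted p = 1.64e-06 and 3.25e-06). MTF1 itself was at -0.04. The metallothionein genes are close paralogs and their probe sets, named _x_at by the array maker, may bind more than 1 of them, so that the falls of MT1X, MT2A, MT1F and MT1H are not separate observations.

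The metallothionein promoters are shown because their members moved together and because metal response elements are short and easy to see. The 250 bases before each start are from RefSeq, on build GRCh38.p14, with the element's core TGCACNC or TGCGCNC on either strand in capitals.
MT1X, chr16:56682220-56682469, plus strand: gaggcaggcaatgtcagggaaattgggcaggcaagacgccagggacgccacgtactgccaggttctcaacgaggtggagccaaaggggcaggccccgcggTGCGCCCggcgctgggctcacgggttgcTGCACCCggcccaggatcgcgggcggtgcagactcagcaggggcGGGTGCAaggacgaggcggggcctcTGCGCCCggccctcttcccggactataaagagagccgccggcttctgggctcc
MT1H, chr16:56669564-56669813, plus strand: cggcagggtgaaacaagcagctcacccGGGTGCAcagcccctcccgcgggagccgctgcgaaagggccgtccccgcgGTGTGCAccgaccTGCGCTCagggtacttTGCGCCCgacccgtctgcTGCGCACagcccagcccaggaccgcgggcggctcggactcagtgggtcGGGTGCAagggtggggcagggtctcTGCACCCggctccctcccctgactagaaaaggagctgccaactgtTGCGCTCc
MT2A, chr16:56608334-56608583, plus strand: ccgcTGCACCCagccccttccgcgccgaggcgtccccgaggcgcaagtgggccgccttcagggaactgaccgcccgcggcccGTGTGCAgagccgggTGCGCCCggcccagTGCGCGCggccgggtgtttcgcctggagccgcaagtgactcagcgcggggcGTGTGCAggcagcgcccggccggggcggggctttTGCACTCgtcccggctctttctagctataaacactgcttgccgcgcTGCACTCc
The core occurred 4 times before MT1X, 8 times before MT1H and 7 times before MT2A, overlapping matches included. It was present before 4 of the 4 shared lower list genes with a promoter entry and before 24.7% of all 27305 promoters of that length. These genes were listed as metallothioneins or as a gene induced by MTF1, so the element was likely to be found in any case. The matches do not bear on the array result. For the cholesterol list a sterol element was searched as TCACNCCAC on both strands. It was found in 0.875% of all promoters, in 1 of 17 list promoters and in 0 of the 9 of shared genes.

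**Figure D2:**
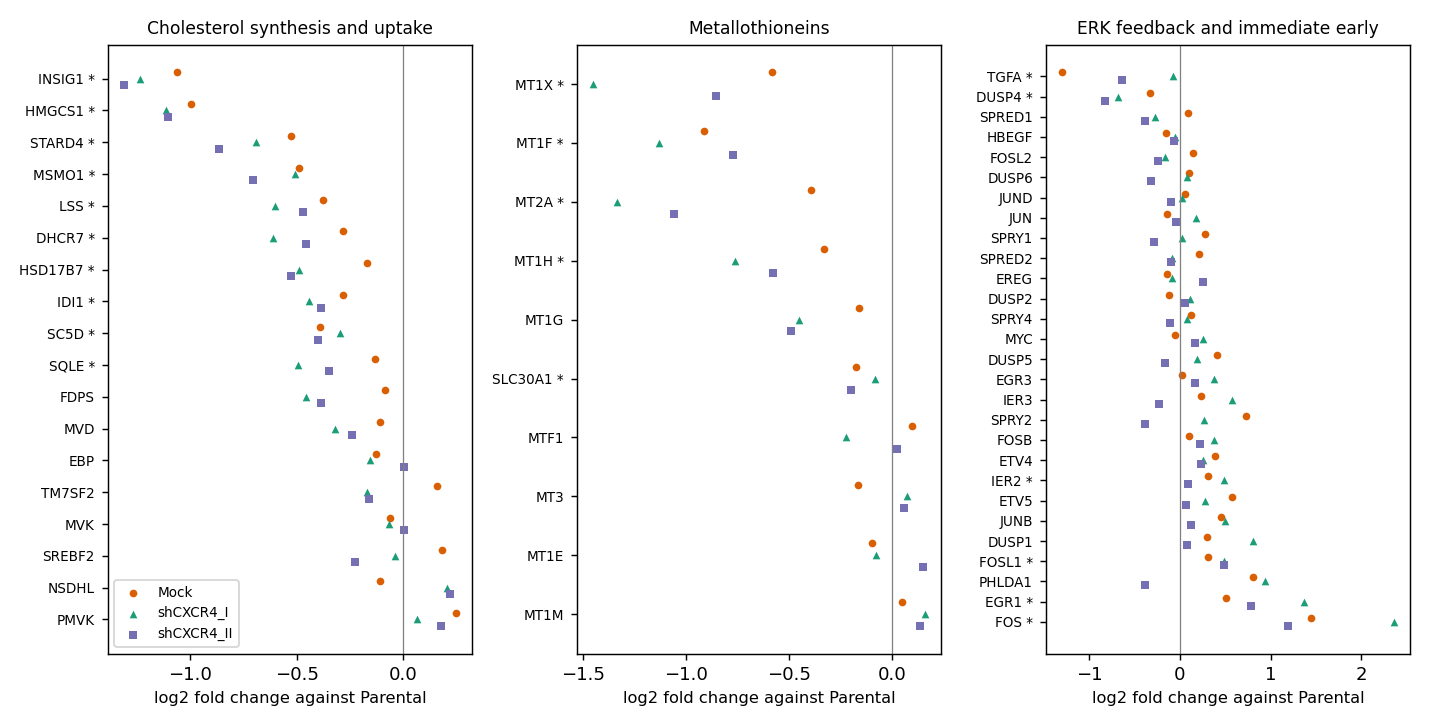
Log2 fold change against Parental (x axis) of each selected group for every measured gene of 3 lists, where an asterisk marks a shared gene. The cholesterol genes lie mostly left of 0 in the 3 groups, 4 metallothioneins lie well to the left, and FOS and EGR1 stand at the right end of the ERK list.

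FOS, EGR1 and other immediate early genes were higher, while 14 of the 28 measured genes of their list did not pass. These genes are transcribed within minutes of growth factor signalling through the ERK kinase cascade, and many products of the same list feed back on it. Of the 28, 12 passed higher and 2 lower (50%, against 15.5% of all genes), and 4 were shared higher and 2 shared lower. In a fit of 9 against 3 arrays that ignores the selected groups, 4 passed higher. The list median was 0.14 for the mean of the selected groups, with 0.18 in Mock, 0.22 in shCXCR4_I and -0.05 in shCXCR4_II. FOS, an AP-1 subunit, had 6.67, 6.69 and 6.79 in Mock, 7.49, 7.70 and 7.72 in shCXCR4_I and 6.36, 6.42 and 6.65 in shCXCR4_II, against 5.19, 5.28 and 5.37 in Parental, which is 3.17-fold above Parental on average (limma adjusted p = 3.24e-09), with shCXCR4_I highest. EGR1, a zinc finger factor, had 9.94, 9.74 and 10.15 in Mock, 10.70, 10.89 and 10.80 in shCXCR4_I and 10.10, 10.05 and 10.49 in shCXCR4_II, against 9.12, 9.52 and 9.65 in Parental. Its rise was 1.85-fold (SE 0.12 on the log2 scale, limma adjusted p = 0.000166), and the lowest Mock array lay only just above the highest Parental array.

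The AP-1 subunit FOSL1 (0.43) and IER2 (0.30) were the other shared higher members, while JUNB (0.36), DUSP1 (0.40) and PHLDA1 (0.46) passed with overlapping arrays. DUSP4, a phosphatase that turns ERK off, had 6.10, 6.17 and 6.04 in Mock, 5.74, 5.87 and 5.66 in shCXCR4_I and 5.47, 5.77 and 5.58 in shCXCR4_II, against 6.42, 6.45 and 6.43 in Parental and was shared lower. TGFA, a ligand of the EGF receptor, fell to 5.43 on average in Mock and 6.09 in shCXCR4_II, but shCXCR4_I arrays at 6.65, 6.66 and 6.64 lay barely below the Parental arrays at 6.72, 6.69 and 6.77. MYC did not pass (0.13, limma adjusted p = 0.162). The CArG box, the binding sequence of serum response factor, was found on either strand in the 250 bases before 1 of 20 list genes with an entry and before 1.14% of all promoters. The gene was EGR1. FOS had no match in its window, and bases further upstream were not searched for any gene, so a site there would be missed. The window of EGR1 is shown because of the gene's rise and holds 2 matches, in capitals.
EGR1, chr5:138465229-138465478, plus strand: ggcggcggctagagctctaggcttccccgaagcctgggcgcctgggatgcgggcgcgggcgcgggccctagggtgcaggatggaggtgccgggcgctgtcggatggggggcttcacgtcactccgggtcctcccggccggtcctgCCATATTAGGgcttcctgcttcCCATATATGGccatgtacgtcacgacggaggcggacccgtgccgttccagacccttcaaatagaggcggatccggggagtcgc

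Genes of redox and oxygen responses did not move as one. Of 29 NRF2 target and glutathione genes, 5 passed lower and 2 higher (24.1%, against 15.5% of all genes). HMOX1, heme oxygenase, had 6.05, 5.93 and 5.87 in Mock, 5.83, 5.98 and 5.96 in shCXCR4_I and 6.04, 6.12 and 6.20 in shCXCR4_II, against 6.56, 6.68 and 6.54 in Parental, a fall of 1.51-fold (limma adjusted p = 1.17e-05). The glutathione synthesis subunit GCLM (-0.57) and glutathione reductase GSR (-0.27) were shared lower, and the glutathione transferase GSTM3, at 12.10, 12.12 and 12.08 in Mock, 12.26, 12.24 and 12.27 in shCXCR4_I and 12.19, 12.28 and 12.26 in shCXCR4_II, against 11.31, 11.30 and 11.42 in Parental, rose 1.81-fold. The list thus had shared members in both directions. Of 31 hypoxia and glycolysis genes, 10 passed higher and 2 lower (38.7%). Neuron-type enolase ENO2 (0.63) and ANKRD37 (0.51) were shared higher, and the 2 lower genes were EPAS1, which encodes the hypoxia-inducible subunit HIF-2alpha (-0.94), and its target VEGFA (-0.42).

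Of 23 p53 target and damage genes, 7 passed lower and 2 higher (39.1%, against 15.5% of all genes). CDKN1A, the cell cycle inhibitor p21, had 9.08, 9.08 and 9.11 in Mock, 9.08, 9.14 and 9.13 in shCXCR4_I and 9.11, 9.12 and 9.14 in shCXCR4_II, against 9.31, 9.33 and 9.33 in Parental. The change was only -0.22 (SE 0.04, limma adjusted p = 0.00274), yet the 9 selected values lay close together and wholly below Parental. MDM2, the ubiquitin ligase of p53, had -0.41, and TP53INP1 had -0.54. Of 32 genes of the unfolded protein and integrated stress responses, 5 passed each way (31.2%). The pseudokinase TRIB3 (-0.35) was shared lower and NUPR1 (0.44) shared higher, while ASNS (0.35) and PHGDH (0.35) passed with overlap. Of 23 heat shock genes, 4 passed higher and 1 lower (21.7%), with DNAJB1 (0.29) and HSPH1 (0.22) shared higher.

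Translation, the process that puromycin stops, had members in both directions. Of 24 cytosolic ribosomal protein genes 0 passed in either direction by limma, with 4 higher and 1 lower at an unadjusted p under 0.05. Of 28 initiation and elongation factors 4 passed higher and 3 lower, or 25%, against 15.5% of all genes, and 14.3% were shared, against 7.86%. This list is bright, with list means of 9.2 to 9.5 over the selected arrays, while the shares of all genes include dim ones. EEF2, the translocase, had -0.08 (limma adjusted p = 0.302). EIF2S1, a subunit of the factor that brings the starting transfer RNA, had 10.21, 10.34 and 10.11 in Mock, 10.11, 10.13 and 10.15 in shCXCR4_I and 10.15, 10.16 and 10.23 in shCXCR4_II, against 9.83, 9.87 and 9.84 in Parental, and the selected arrays were above Parental by a small margin (0.33, SE 0.05). Its exchange factor subunit EIF2B2 rose too (0.24). Of 27 ribosome biogenesis genes 5 passed higher and 0 lower (18.5%, against 15.5% of all genes), with 0 lower at an unadjusted p under 0.05 too. Of 25 proteasome genes 4 passed higher, PSMA3 (0.36), PSMC1 (0.22), PSMC6 (0.16) and PSMA5 (0.18), and 0 lower, with 1 lower at an unadjusted p under 0.05. That is 16% of the list, near the 15.5% of all genes. Shared genes made up 14.8% of the ribosome biogenesis list and 16% of the proteasome list, against 7.86% of all genes. Both lists are bright, with list means of 8.9 to 9.1 and 9.7 to 9.8 over the selected arrays. Of the 1555 shared genes, 1231 had a mean log2 value of at least 6, as had 8339 of the 19687 genes placed on a chromosome. The 7.86% is thus a low yardstick for bright lists, and no excess is read from it. The proteasome list median was -0.001.

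Drug transporters passed in both directions. Of 20 efflux and uptake transporters 2 passed each way (20%, against 15.5% of all genes), with ABCA3 (0.53) and SLCO4A1 (0.44) shared higher and ABCC4 (-0.30) shared lower. ABCB1, the multidrug pump, was dim, at 3.71, 3.61 and 3.99 in Mock, 2.94, 2.68 and 2.6 in shCXCR4_I and 3.01, 2.72 and 2.71 in shCXCR4_II, against 3.33, 3.42 and 3.32 in Parental, with Mock above and the clones below Parental, and its mean did not pass (limma adjusted p = 0.0952). ABCG2 (-0.05) and the nucleoside transporter SLC29A1 (0.01) did not pass either. Of 18 sensors of foreign nucleic acids 1 passed lower (5.56%), STING1 (-0.23), and 0 were shared. Of 38 interferon-stimulated genes 5 passed higher and 6 lower (28.9%), with IFITM3 (0.24) shared higher and IFIT2 (-0.65) shared lower. IFIT1 (-0.16) and ISG15 (-0.11) did not pass. Of 15 genes of the RNA interference machinery 2 passed lower (13.3%, near the share of all genes), SND1 (-0.27) and TNRC6A (-0.26). DICER1 had 0.08 (limma adjusted p = 0.522).

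Adhesion genes changed in both directions. Of 29 epithelial junction genes 8 passed higher and 5 lower (44.8%, against 15.5% of all genes). CDH1, E-cadherin, had 7.91, 7.82 and 7.98 in Mock, 8.27, 8.13 and 8.14 in shCXCR4_I and 7.14, 7.25 and 7.23 in shCXCR4_II, against 8.70, 8.75 and 8.84 in Parental, a fall of 2-fold (limma adjusted p = 3.61e-08) that was greatest in shCXCR4_II. CDH2, N-cadherin, fell as well, at 5.39, 5.51 and 5.55 in Mock, 5.32, 5.30 and 5.25 in shCXCR4_I and 5.34, 5.22 and 5.26 in shCXCR4_II, against 6.73, 6.42 and 6.30 in Parental (2.19-fold, limma adjusted p = 2.72e-07). Both cadherins were thus lower in all selected arrays. The tight junction protein CLDN1 (0.46) and the membrane protease ST14 (0.58) were shared higher. Of 31 mesenchymal and matrix genes 4 passed lower and 0 higher (12.9%), with 2 higher at an unadjusted p under 0.05.

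Among gap junction and caveolar genes, GJA1, connexin 43, had 7.24, 7.33 and 7.08 in Mock, 2.81, 3.03 and 2.99 in shCXCR4_I and 3.10, 3.30 and 3.37 in shCXCR4_II, against 8.11, 8.14 and 8.09 in Parental. It met the shared rule, but its fold change was -0.90 in Mock, against -5.17 and -4.86 in the clones, whose arrays were near the bottom of the scale. CAV1, the coat protein of caveolae, had 6.36, 6.28 and 6.35 in Mock, 5.47, 5.67 and 5.58 in shCXCR4_I and 5.73, 5.65 and 5.62 in shCXCR4_II, against 7.25, 7.42 and 7.41 in Parental, a fall of 2.83-fold (limma adjusted p = 1.01e-09). Of 24 integrin, laminin and nephronectin genes 6 passed higher and 5 lower (45.8%, against 15.5% of all genes). The integrin subunit ITGB8 had -1.34, greatest in Mock (-2.18), and NPNT, nephronectin, a matrix ligand of integrins, had 1.55, greatest in shCXCR4_I (2.23) and small in Mock (0.34).

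Extracellular proteases and their inhibitors fell more often than they rose, with 8 of 28 lower, 2 higher and 7 shared lower. In all 35.7% of them passed, against 15.5% of all genes. SERPINE2, a secreted inhibitor of thrombin and urokinase, had 5.37, 5.44 and 5.16 in Mock, 5.64, 5.54 and 5.67 in shCXCR4_I and 5.04, 5.50 and 5.29 in shCXCR4_II, against 6.90, 6.91 and 6.72 in Parental, a fall of 2.71-fold (limma adjusted p = 1.08e-07). The collagenase MMP1 (-1.31), close to the bottom of the scale in Mock and shCXCR4_II, and the aggrecanase-family protease ADAMTS1 (-1.03) were lower too. Of 33 receptor tyrosine kinases 7 passed lower and 6 higher (39.4%). Beside KIT and EPHA4, the shared lower ones were ERBB4, a neuregulin receptor (-1.22), and FGFR2 (-1.07), whose bright probe sets fell while dim ones did not pass.

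Retinoid genes showed opposite changes of related enzymes. ALDH1A3, which like ALDH1A1 makes retinoic acid, had 5.12, 5.14 and 4.99 in Mock, 6.56, 6.56 and 6.48 in shCXCR4_I and 6.45, 6.56 and 6.39 in shCXCR4_II, against 4.82, 4.25 and 4.40 in Parental. It rose 2.9-fold on average (limma adjusted p = 8.92e-08), and its fold change was 0.59 in Mock, 2.04 in shCXCR4_I and 1.98 in shCXCR4_II. With CRABP2 above, 5 of 23 aldehyde dehydrogenase and retinoid genes passed higher and 4 lower (39.1%, against 15.5% of all genes). Of these, 4 were shared higher and 2 shared lower.

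HOX genes were lower where they passed. Of 24 measured HOX genes 8 passed lower and 0 higher (33.3%, against 15.5% of all genes), with 1 higher at an unadjusted p under 0.05. They lie in clusters and set position along the body axis, and 6 of the 8 are neighbours in the HOXB cluster on chromosome 17, from HOXB2 to HOXB7. HOXB2 had 8.43, 8.45 and 8.28 in Mock, 8.49, 8.49 and 8.57 in shCXCR4_I and 8.19, 8.16 and 8.22 in shCXCR4_II, against 8.94, 9.0 and 8.93 in Parental and HOXB3 had 8.35, 8.24 and 8.30 in Mock, 8.14, 8.07 and 8.09 in shCXCR4_I and 7.69, 7.72 and 7.81 in shCXCR4_II, against 8.55, 8.59 and 8.52 in Parental. HOXB4 (-0.35) and HOXB5 (-0.35) were shared lower, while HOXB6 (-0.43) and HOXB7 (-0.37) passed with overlap. The deacetylase HDAC9 (-1.07) and the factor SOX4 (-0.74) were shared lower with Mock lowest. Of 25 Notch pathway genes 5 passed higher and 2 lower (28%), with 3 shared higher. The target HES1 had 7.92, 8.13 and 8.35 in Mock, 8.38, 8.44 and 8.35 in shCXCR4_I and 7.73, 8.03 and 8.41 in shCXCR4_II, against 7.25, 7.55 and 7.37 in Parental, but a probe set outside the _x_at and _s_at classes gave 0.10 and did not pass. The ligand JAG2 had 7.85, 7.84 and 8.09 in Mock, 8.07, 8.0 and 7.89 in shCXCR4_I and 8.11, 8.07 and 8.08 in shCXCR4_II, against 7.19, 7.37 and 7.37 in Parental.

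The mitotic list shows how a mean can pass without being shared. Of 32 measured genes 18 passed lower and 0 higher by limma (56.2%, against 15.5% of all genes). At an unadjusted p under 0.05, 21 were lower and 0 higher. However, only UBE2C, which tags mitotic proteins for destruction, lay below the Parental range on all 9 arrays (-0.31). The list median was 0.06 in Mock, -0.52 in shCXCR4_I and -0.17 in shCXCR4_II. CCNB1, cyclin B1, had 10.37, 10.41 and 10.39 in Mock, 9.87, 9.95 and 9.95 in shCXCR4_I and 10.18, 10.29 and 10.35 in shCXCR4_II, against 10.40, 10.42 and 10.37 in Parental, with Mock among the Parental arrays and shCXCR4_I lowest. The clones, and not Mock, thus carried the lower mean.

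**Figure D3:**
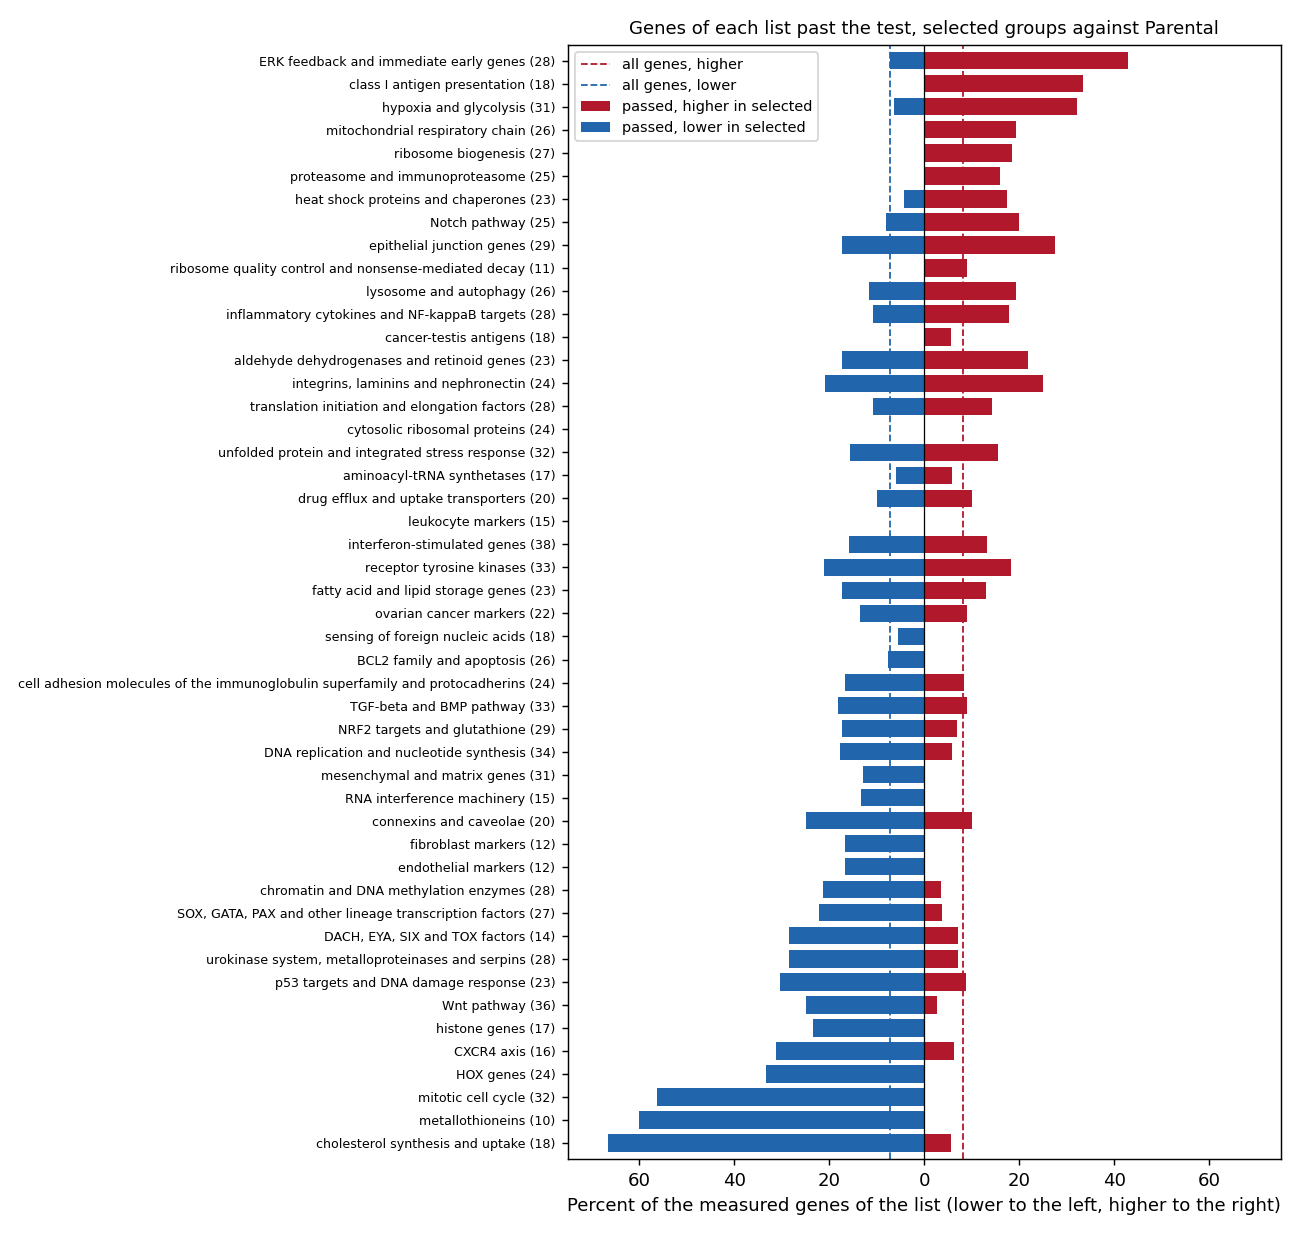
Percent of the measured genes of each of 48 lists past the test (x axis, lower to the left and higher to the right), with the number measured in brackets and dashed lines at the shares of all genes, 8.24% higher and 7.24% lower. Cholesterol, metallothionein, mitotic and HOX genes extend furthest to the left, and ERK and immediate early genes furthest to the right.

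Shared higher genes were unevenly spread over the genome. This was seen only after the results were known, and it is given as a description. Chromosome 14 held 94 shared higher genes among its 611 measured genes, or 15.4%, against 4.38% of all genes, and 8 shared lower ones (1.31% against 3.48%). It thus held 10.8% of the shared higher genes and 3.09% of the genes. Without it, 773 genes (4.03%) were shared higher.

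**Figure D4:**
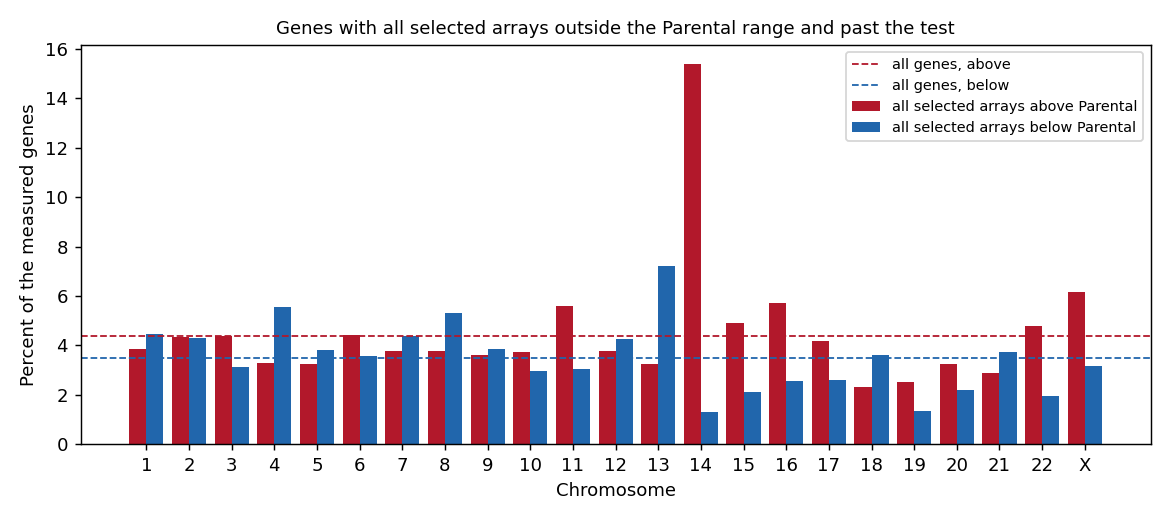
Percent of the measured genes of each chromosome (x axis) past the test with all selected arrays above (red) or below (blue) the Parental arrays, with dashed lines at the shares of all genes. Chromosome 14 reaches 15.4% above Parental, while chromosome 13 has the highest share below it, 7.23%.

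The pattern on chromosome 14 was a small shift of most genes. Among its 273 genes with a mean log2 value of at least 6, 82 (30.0%) were shared higher, 81.7% had a log2 fold change above 0 and the median was 0.16. The medians of the other autosomes ran from -0.04 to 0.03, with shared higher shares of 4.13% to 10.9%. Chromosome X came next after chromosome 14, with a median of 0.08 and a shared higher share of 14.1%. Its medians were 0.02 in Mock, 0.14 in shCXCR4_I and 0.09 in shCXCR4_II. By array, the chromosome 14 median relative to the Parental mean was 0.16, 0.25 and 0.23 in Mock, 0.15, 0.16 and 0.14 in shCXCR4_I and 0.06, 0.10 and 0.16 in shCXCR4_II, against -0.01, 0.01 and 0.00 in Parental. All 9 selected arrays were above the 3 Parental arrays. Among all 611 genes, dim ones included, the median was 0.08, and it was 0.15 to 0.18 for the brighter genes after centring, after quantile normalization or without any 1 Parental array.

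In gene order, taken from RefSeq on GRCh38.p14, the brighter genes of chromosome 14 formed 10 blocks of neighbours, and each block had a median above 0 (0.05 to 0.21). In 7 of them it was above the highest of 301 such blocks on the other autosomes, which ran from -0.19 to 0.11. The other 3 blocks of chromosome 14, from DUXAP10 to PSMB5 (0.05), from CDH24 to HEATR5A (0.09) and from PLEK2 to COQ6 (0.08), were lower, and the block from VIPAS39 to GON7 was highest (0.21). The lowest block of the other autosomes, from BRD7 to CPNE2 on chromosome 16, spans the metallothionein genes and held 7 shared lower genes. Its medians were 0.01 in Mock, -0.25 in shCXCR4_I and -0.34 in shCXCR4_II. Whether the metallothioneins fell with their neighbours was not tested. FOS lies on chromosome 14, as do JAG2, EIF2S1, EIF2B2 and 3 of the 4 proteasome genes above, PSMA3, PSMC1 and PSMC6. Among genes chosen after their values were seen, ADSS1, which makes adenylosuccinate for AMP synthesis, had 8.37, 8.39 and 8.36 in Mock, 8.35, 8.36 and 8.30 in shCXCR4_I and 8.27, 8.27 and 8.44 in shCXCR4_II, against 7.69, 7.71 and 7.69 in Parental, and the F test among the 3 selected groups did not pass (limma adjusted p = 0.756). RAB15, a GTPase of endosome recycling, had 8.48, 8.60 and 8.63 in Mock, 8.89, 8.79 and 8.79 in shCXCR4_I and 8.58, 8.57 and 8.63 in shCXCR4_II, against 8.02, 7.99 and 8.05 in Parental. LGALS3, galectin-3, with group means of 8.62 in Mock, 10.8 in shCXCR4_I and 9.94 in shCXCR4_II against 8.14 in Parental, was far outside the small shift of its neighbours. DICER1, also on chromosome 14, did not pass.

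**Figure D5:**
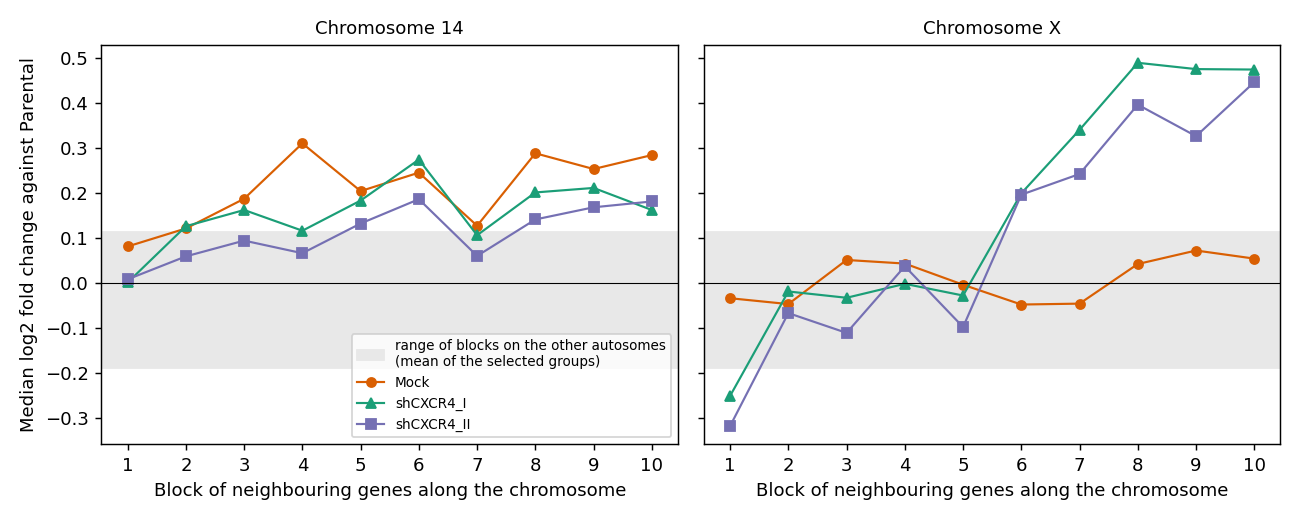
Median log2 fold change against Parental (y axis) of blocks of neighbouring brighter genes in order along chromosomes 14 (left) and X (right), 1 line per selected group, with the grey band spanning the blocks of the other autosomes for the mean of the 3 groups. On chromosome 14 the 3 groups run above 0 together, while on chromosome X the clones rise from the sixth block on and Mock stays between -0.05 and 0.07.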

How the data were processed

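The authors deposited log2 values per probe set, made with RMA in R 2.6.0 per the submitters' processing notes, and no further normalization was applied. The sources used here do not give the chip definition, the background step or any filter. Of 54675 probe sets, 41097 carry 1 gene symbol, 1801 several and 11777 none. Each of 19775 genes was represented by its brightest single-symbol probe set over all arrays. A group-means model on all 12 arrays was fitted with limma 3.58.1 in R 4.3.3 (8 residual and 5.19 prior degrees of freedom), for the equal-weight mean of Mock, shCXCR4_I and shCXCR4_II minus Parental, with Benjamini-Hochberg adjustment over all genes at 0.05. The script was tested on simulated data.

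The genes compared and the 48 gene lists (1121 of 1238 genes measured) were chosen with earlier results of these data known. Named genes are CXCR4, the 15 higher and 15 lower shared genes with the largest smallest change over the 3 groups, each list's key genes and up to 4 shared members each way, and the genes at the edge of the rule. List members with only a fold change, and chromosome 14 genes, were chosen after their values were seen. Alternatives were the handling of probe sets, 2 filters on dim genes, quantile normalization, centring, a trended robust variance, array weights, a 2-group fit, a replicate block, stricter thresholds, and leaving out a group or an array. Chromosomes, gene order and promoter sequences are from RefSeq (GRCh38.p14). The arrays' own build is not given in the sources used here. Plots and motif searches used Python 3.11.15 with numpy 2.4.6, pandas 2.3.3 and matplotlib 3.10.9.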

Additional observations from a re-analysis of the deposited data

Results flagged for a closer look

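Several genes met the shared rule although a selected group differed from Mock by more than 2-fold, as tested with limma's treat at that minimum and adjusted over all genes. Lower in shCXCR4_I than in Mock were GJA1, by -4.27 on the log2 scale (adjusted p = 3.89e-11), SHISA3, by -2.22 (1.08e-06), and MGAT4C, by -1.67 (0.0163). Higher in shCXCR4_I than in Mock were LGALS3, by 2.14 (1.18e-06), NPNT, by 1.90 (1.8e-06), and ITGB8, by 1.46 (0.00625). Lower in shCXCR4_II than in Mock were LRATD1, by -2.02 (3.88e-05), PDGFC, by -1.51 (0.000735), and DPYSL2, by -1.39 (0.0206). CXCR4, the target of the hairpins and not a shared gene, was lower in shCXCR4_II than in Mock by -1.96 (1.6e-05). Each gene is listed under a single contrast, so the other clone can differ from Mock as well. GJA1 and SHISA3 were also far below Mock in shCXCR4_II, and CXCR4 was also below Mock in shCXCR4_I.

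Among the 108 genes checked, which are the leading genes and most of those described with values, 1 had a selected array apart from the other 8 by Dixon's test. NNMT was at 3.11 on Mock_2, against 3.43 to 3.63 on the other selected arrays, and all 3 Parental arrays lay above these. Where all 9 values come from a single population, chance sets an array apart in about 1 in 20 genes. Here they come from 3 groups that differ at many genes, so that rate does not hold.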

How the results depend on the processing

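The 30 leading genes passed in their direction under every alternative that measured them except the removal of probe sets named _x_at or _s_at, where 18 of 21 passed. Under that setting LRATD1 was at 0.03, ADGRL2 at 0.005 and, among other named genes, FGFR2 at 0.035 and LGALS3 at -0.028, each on a dimmer probe set, and MT1X, MT2A, MT1F and MT1H were not measured. SMOC2 (0.20, adjusted p = 0.149) and HES1 (0.10, adjusted p = 0.448) no longer passed there, nor did TTC9C, MDM2 and PSMA5. Of the 96 shared genes checked one by one, 62 kept their direction and their side of the threshold in every alternative. With a minimum fold of 1.2, 23 did not pass, and in the fit of 9 against 3 arrays 12 did not. That fit left 4 immediate early genes higher and 4 HOX genes lower. Counts moved more. The 3060 genes that differed numbered 995 (525 higher, 470 lower) in a fit of 9 against 3 arrays that ignores the selected groups, 416 (140 and 276) with a minimum fold of 1.2, 1780 (884 and 896) at an adjusted p under 0.01 and 4621 (2380 lower) over every single-symbol probe set. The 1555 shared genes numbered 941 (492 and 449), 341 (116 and 225) and, over probe sets, 2497 (1224 below), and 3126 (1441 and 1685) where Mock was left out. Higher genes made up 53.2% of those called, 33.7% with the minimum fold, 47.3% without Mock. The genes that differed among the selected groups numbered 3245 at an adjusted p under 0.01 and 9148 over probe sets. Genes past the test in Mock, shCXCR4_I and shCXCR4_II numbered 432, 643 and 562 with the minimum fold and 1585, 1963 and 1762 at an adjusted p under 0.01, and over probe sets 5099 and 5149 in the clones. The causes were not tested. Leaving out 1 array at a time gave 1941 to 3332 genes (990 to 1747 higher, 951 to 1616 lower), 1375 to 1715 shared (727 to 990 above, 648 to 769 below), 4469 to 7094 among the selected groups, and 2079 to 3308, 2418 to 3660 and 2215 to 4033 in Mock, shCXCR4_I and shCXCR4_II. The lowest count of shared genes came without Parental replicate 2. With the replicate number as a block, 1494 genes were shared, 1490 of them in the main set. Deviations of same-numbered arrays correlated at -0.109 to 0.148 and those of other arrays at -0.228 to 0.234. Pairing by number was thus not seen, but with 3 arrays a group these correlations cannot show that it was absent. Precision is limited by 3 arrays a group, and folds at the dim end are compressed.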

Other observations

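Some genes of antigen presentation were higher. Of 18 measured genes around class I presentation 6 passed higher, 0 lower and 12 did not pass. Thus 33.3% passed, against 15.5% of all genes. At an unadjusted p under 0.05 by limma, 8 were higher and 0 lower. The list median was 0.13 in Mock, 0.20 in shCXCR4_I and -0.03 in shCXCR4_II, all against the same Parental arrays. HLA-F (0.40) and the class II peptide loading subunit HLA-DMA (0.76) were above the Parental range on all 9 selected arrays, and HLA-B (0.23), TAP1 (0.19) and the transactivator NLRC5 (0.26) passed with overlapping arrays. HLA genes are similar in sequence, and their probe sets may share signal. Of 36 Wnt pathway genes 9 passed lower and 1 higher (27.8%). The ligand WNT5A (-0.67) and the secreted antagonist-related DKK3 (-0.58) were shared lower, and the receptor FZD7 (0.26) was shared higher. Of 17 histone genes 4 passed lower and 0 higher (23.5%), with 7 lower and 1 higher at an unadjusted p under 0.05.

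On chromosome X the distal blocks differed between the clones and the Mock pool. Blocks of neighbouring brighter genes from ZMYM3 to the end of the chromosome had medians of 0.20 to 0.49 in shCXCR4_I and 0.20 to 0.45 in shCXCR4_II, and -0.05 to 0.07 in Mock, all against the same Parental arrays. The first block, from GTPBP6 to ASB9, had -0.25 and -0.32 in the clones and -0.03 in Mock.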
